A study of Mus musculus with 4 samples.

Results

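The genes of the glycolytic enzymes were followed in female mouse ESCs treated with ascorbic acid (AA), with and without the demethylase inhibitor GSK-J4. The set comprised 10 genes, *Hk2*, *Gpi1*, *Pfkl*, *Aldoa*, *Tpi1*, *Gapdh*, *Pgk1*, *Pgam1*, *Eno1* and *Ldha*, and it was selected on pathway membership with the FPKM ratios of AA to PBS in these same libraries known. Of these, 9 had a value in the deposited tables, out of 9779 genes with a value, and the level of *Gpi1* was not analysed here. RNA-Seq was performed on the feeder-dependent LF2 line (strain 129/J), which was passaged without feeders before treatment. Treatment lasted 24 hr and combined either PBS or AA at 50 μg/ml with either DMSO or GSK-J4 at 10 μM, which gave 4 conditions, PBS+DMSO, AA+DMSO, PBS+GSK-J4 and AA+GSK-J4. PBS served as the control for AA, and DMSO for GSK-J4. Each condition is 1 library of 1 cell line, so no difference has a replicate and no test was run. All values below are descriptions of these libraries.

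Glycolysis splits glucose into pyruvate in the cytosol and yields ATP without oxygen, and lactate dehydrogenase then turns pyruvate into lactate. Mouse ESCs are known for a high rate of glycolysis. Most of these genes are known targets of the hypoxia-inducible factor HIF, a transcription factor whose alpha subunit is marked for destruction by prolyl hydroxylases. These hydroxylases, the TET enzymes and the JmjC histone demethylases that GSK-J4 inhibits are all iron- and α-ketoglutarate-dependent oxygenases, and AA is known to support the activity of enzymes of this kind.

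HIF binds DNA at a short core that reads ACGTG or GCGTG. Because most of the enzyme genes were lower together in AA, the 250 bases upstream of the RefSeq transcription start site (build GRCm38.p6) were searched for these letters on both strands. The upstream sequences of *Ldha*, *Pgk1*, *Pfkl* and *Aldoa*, which were all much lower with AA, and of *Hk2*, whose level was nearly the same with and without AA, are shown 5′ to 3′ on the strand of the gene. Capitals mark ACGTG or GCGTG as read or on the other strand, and adjoining matches overlap where the letters read CACGTG.
Ldha, chr7:46845554-46845803, plus strand: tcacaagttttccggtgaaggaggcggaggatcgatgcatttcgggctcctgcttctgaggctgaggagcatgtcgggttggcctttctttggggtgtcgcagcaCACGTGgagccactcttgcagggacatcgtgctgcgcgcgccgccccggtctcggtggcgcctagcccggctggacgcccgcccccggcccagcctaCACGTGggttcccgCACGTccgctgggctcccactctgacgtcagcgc
Pgk1, chrX:106186850-106187099, plus strand: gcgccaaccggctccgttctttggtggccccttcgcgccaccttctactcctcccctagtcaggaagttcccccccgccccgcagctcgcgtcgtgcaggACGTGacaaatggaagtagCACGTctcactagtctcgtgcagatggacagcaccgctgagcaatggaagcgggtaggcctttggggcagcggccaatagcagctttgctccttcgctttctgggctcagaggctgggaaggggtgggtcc
Pfkl, chr10:78009808-78010057, minus strand: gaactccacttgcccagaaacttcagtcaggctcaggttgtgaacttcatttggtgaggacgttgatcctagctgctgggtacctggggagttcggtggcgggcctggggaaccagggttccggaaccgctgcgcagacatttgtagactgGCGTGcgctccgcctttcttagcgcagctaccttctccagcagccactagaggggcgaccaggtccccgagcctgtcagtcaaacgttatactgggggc
Aldoa, chr7:126800448-126800697, minus strand: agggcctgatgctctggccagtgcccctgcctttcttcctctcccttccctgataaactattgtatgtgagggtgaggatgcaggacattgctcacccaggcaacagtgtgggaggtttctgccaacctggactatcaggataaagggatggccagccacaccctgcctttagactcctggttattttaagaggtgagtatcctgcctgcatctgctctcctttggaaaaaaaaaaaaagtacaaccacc
Hk2, chr6:82774455-82774704, minus strand: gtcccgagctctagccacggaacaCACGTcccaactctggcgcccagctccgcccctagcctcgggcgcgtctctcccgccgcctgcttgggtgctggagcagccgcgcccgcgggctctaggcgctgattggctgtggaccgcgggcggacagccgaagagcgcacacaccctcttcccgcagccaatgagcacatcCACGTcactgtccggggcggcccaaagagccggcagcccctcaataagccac
*Ldha* held 5 matches, of which 4 lay in a pair of palindromic CACGTG stretches that are each matched on both strands. *Pgk1* held 2 matches, *Pfkl* 1 and *Hk2* 2. *Pgam1* held 3 matches, and *Gapdh* and *Eno1* 2 each. *Tpi1* and *Aldoa* held 0 and were also much lower with AA. Thus 7 of the 9 windows of enzymes with a value held a match, and a link of matches to the AA ratios was not tested. The window of *Gpi1*, which had no value, held 0 matches. Of the 32851 RefSeq promoters, 38.6% held a match, and so did 64.4% of the 477 promoters of genes with a mean FPKM of at least 100. RefSeq lists 3 start sites for *Aldoa* and for *Eno1* and 2 for *Ldha*, and the start nearest to the deposited locus was used. The RefSeq start and the end of the deposited locus did not always coincide. The *Pfkl* window lies wholly within its locus, which ends at 78010158, and several other windows overlap theirs in part. The *Aldoa* window begins beyond the end of its locus at 126800076. A match is a run of letters in the reference genome of another strain, and binding was not measured.

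The deposited tables hold FPKM, a read count scaled to transcript length and library size, so that levels can be compared between genes. Each enzyme gene was listed as a single coding sequence group. Several of them, *Gapdh*, *Ldha*, *Pgk1*, *Eno1*, *Tpi1*, *Aldoa* and *Pgam1* among them, have near-identical processed copies in the mouse genome, so their levels are uncertain to the extent that reads were split between copies. The summed FPKM was 271205 to 360621 per library and 8610 to 8981 genes reached an FPKM of 1. Read counts were not given. The spacing of the lowest FPKM values, which are multiples of what 1 read is worth, placed the depth of AA+DMSO at 0.793 of PBS+DMSO, and this value is tentative because few groups fall on the steps (10.9% at the best ratio, 10.1% at the next), while no ratio stood out for the GSK-J4 libraries. The cells carried ESC markers in every library, with a summed FPKM of 1177 to 2124 for the 7 of 8 markers with a value. Of 8 feeder fibroblast markers, 3 were listed, none at 0, and they summed to 7.54 to 8.85 FPKM. Of 6 primitive endoderm markers and 4 trophectoderm markers, 1 each was listed, at no more than 1.61 and 2.06 FPKM. In bulk RNA, fewer cells of one kind and less RNA per cell cannot be told apart.

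The enzymes differed widely in level. In PBS+DMSO, *Gapdh*, which oxidizes glyceraldehyde phosphate and is widely used as a reference gene, was highest at 1422 FPKM and ranked 32 of 9779 genes. *Hk2*, the hexokinase that commits glucose to the cell, was lowest at 48.7 FPKM and ranked 1279. Together the 9 genes made up 1.56% of the summed FPKM in PBS+DMSO, 1.08% in AA+DMSO, 1.38% in PBS+GSK-J4 and 0.804% in AA+GSK-J4. Of the 100 most abundant genes, 5 were glycolytic enzymes in PBS+DMSO, 3 in AA+DMSO, 5 in PBS+GSK-J4 and 2 in AA+GSK-J4. On the FPKM as deposited, every one of the 9 genes was highest in PBS+DMSO and lowest in AA+GSK-J4, which did not hold for *Hk2* and *Pfkl* once the libraries were scaled to the same total. The share of all genes with this order was not computed. Of all genes tested, 62.4% were lower by any amount in AA+DMSO than in PBS+DMSO, and 55.4% in AA+GSK-J4 than in PBS+GSK-J4. With GSK-J4, 63.0% were lower by any amount without AA and 62.2% with AA. The conditions in between came in either order. *Pfkl*, *Aldoa*, *Tpi1*, *Pgk1* and *Ldha* were lower with AA alone than with GSK-J4 alone, and *Hk2*, *Gapdh*, *Pgam1* and *Eno1* were lower with GSK-J4 alone. The order of *Eno1* turned with scaling to the same total, where its log2 ratio was -0.36 for AA in DMSO and -0.28 for GSK-J4 without AA.

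**Figure D1:**
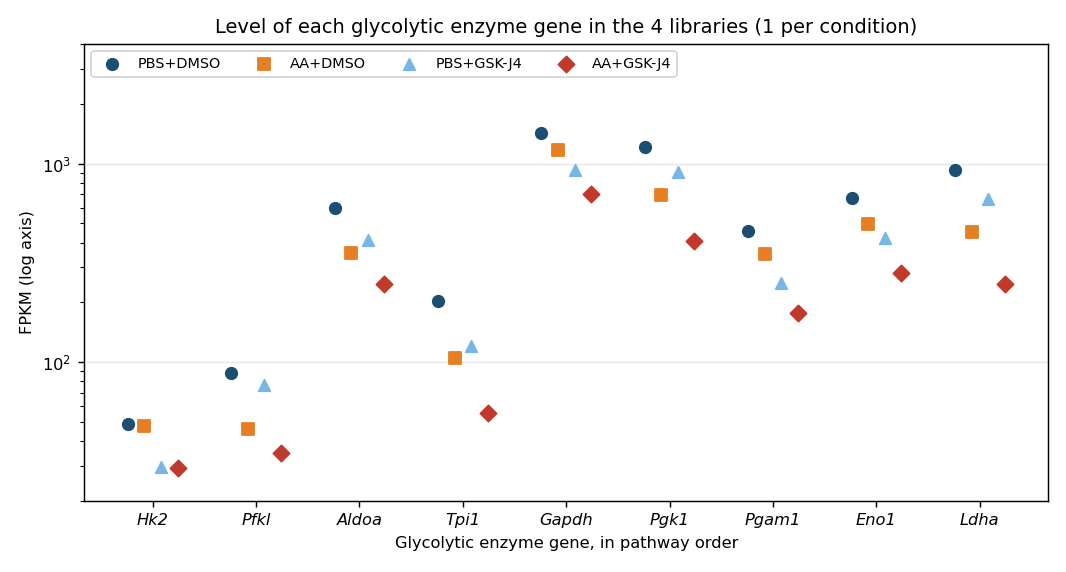
FPKM (log axis) of the 9 glycolytic enzyme genes in pathway order, with 1 point per library in each of the 4 conditions and no error bars, since each condition is 1 library. *Hk2* sits at nearly the same level with and without AA (48.7 and 47.6 FPKM in DMSO), while *Ldha* spans 933 to 248 FPKM.

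The first comparison was AA against PBS in DMSO. Changes are given as log2((AA FPKM + 1)/(PBS FPKM + 1)), and a gene was counted as lower or higher where the ratio was at least 0.32 in size on the log2 scale. Of the 9 enzymes, 7 were lower by this measure and 0 were higher, beside 6.73% of all 8843 genes lower and 5.86% higher. At 1.5-fold, 5 enzymes were lower, beside 2.22% of all genes, and at 2-fold 1 enzyme, beside 0.735%. The set was chosen with this comparison known, so the count is a description and nothing is read from it. The median log2 ratio of the enzymes was -0.75, and that of all genes was -0.05 with an SD of 0.27. The PBS and AA libraries stand in separate deposited tables, and the sources used here do not state whether these tables were normalised together. The comparison of GSK-J4 with DMSO without AA, described further on, uses the same PBS+DMSO library.

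At the top of the pathway, *Hk2* (chromosome 6, 82725023 to 82774473) was at 48.7 FPKM in PBS+DMSO, 47.6 in AA+DMSO, 29.5 in PBS+GSK-J4 and 29.3 in AA+GSK-J4. Its level with AA was 97.6% of that with PBS in DMSO and 99.2% under GSK-J4. *Hk2* was therefore set apart by GSK-J4 only, and its log2 ratios for AA, -0.03 and -0.01, changed sign when the libraries were scaled in another way. *Pfkl* (chromosome 10, 77986826 to 78010158) encodes the liver-type phosphofructokinase, which carries out the main regulated step. It was at 87.8 FPKM in PBS+DMSO, 45.7 in AA+DMSO, 76.8 in PBS+GSK-J4 and 34.9 in AA+GSK-J4. Both AA libraries lay below both PBS libraries, and the log2 ratio for AA in DMSO was -0.93.

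The next enzymes split the phosphorylated sugar and interconvert the products. *Aldoa*, aldolase A (chromosome 7, 126794998 to 126800076), was at 595 FPKM in PBS+DMSO, 354 in AA+DMSO, 414 in PBS+GSK-J4 and 246 in AA+GSK-J4. With AA its level was 59.4% of that with PBS, in DMSO and under GSK-J4 alike. *Tpi1*, triosephosphate isomerase (chromosome 6, 124802574 to 124814258), was at 203 FPKM in PBS+DMSO, 105 in AA+DMSO, 121 in PBS+GSK-J4 and 55.1 in AA+GSK-J4. In DMSO the log2 ratio for AA was -0.94, next to that of *Ldha* in size. Both genes were lower in each AA library than in either PBS library.

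The payoff steps differed among themselves. *Gapdh* (chromosome 6, 125161789 to 125165759) was at 1422 FPKM in PBS+DMSO, 1170 in AA+DMSO, 927 in PBS+GSK-J4 and 703 in AA+GSK-J4. The AA ratio of *Gapdh* in DMSO, -0.28 on the log2 scale, did not reach the limit of 0.32. *Pgk1*, phosphoglycerate kinase, which makes the first ATP of the pathway (chromosome X, 106187114 to 106203774), was at 1218 FPKM in PBS+DMSO, 692 in AA+DMSO, 910 in PBS+GSK-J4 and 408 in AA+GSK-J4. These consecutive enzymes were at similar levels in PBS+DMSO, whereas with AA *Pgk1* kept 56.8% of its PBS level and *Gapdh* 82.3%. *Pgam1*, phosphoglycerate mutase (chromosome 19, 41911817 to 41919552), was at 455 FPKM in PBS+DMSO, 349 in AA+DMSO, 249 in PBS+GSK-J4 and 176 in AA+GSK-J4. *Eno1*, enolase (chromosome 4, 150237182 to 150249364), was at 669 FPKM in PBS+DMSO, 495 in AA+DMSO, 421 in PBS+GSK-J4 and 280 in AA+GSK-J4. Their log2 ratios for AA in DMSO were -0.38 for *Pgam1* and -0.43 for *Eno1*, and on the FPKM as deposited the AA+DMSO library lay above the PBS+GSK-J4 library in both genes.

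*Ldha* (chromosome 7, 46845700 to 46855629), the lactate dehydrogenase subunit that favours lactate formation, was at 933 FPKM in PBS+DMSO, 450 in AA+DMSO, 666 in PBS+GSK-J4 and 248 in AA+GSK-J4. With AA it kept 48.2% of its PBS level in DMSO, a log2 ratio of -1.05 and the lowest of the 9 enzymes. Among the 4345 genes with a mean FPKM of at least 10, ordered by the mean of the AA log2 ratios in DMSO and under GSK-J4, *Ldha* stood in position 3 from the lowest. *Tpi1*, *Pfkl*, *Pgk1* and *Aldoa* stood in positions 4, 5, 6 and 8. *Eno1* was in position 20, *Pgam1* in 30, *Gapdh* in 71 and *Hk2* in 2439. Abundant genes as a whole varied little with AA. Among 475 other genes with a mean FPKM of at least 100, a limit chosen after the values were seen, the log2 ratios in DMSO had a median of -0.08 and a 5th to 95th percentile range of -0.22 to 0.09, and 7 genes (1.47%) were lower by the same limit. Of the 9 enzymes, 7 reached that mean FPKM, and *Hk2* and *Pfkl* did not.

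**Figure D2:**
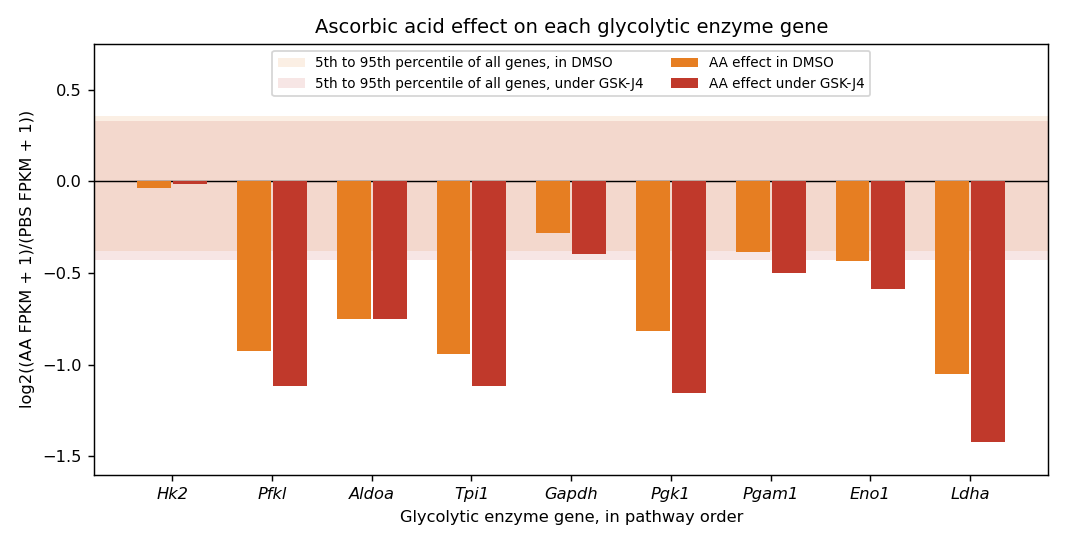
AA effect on each glycolytic enzyme gene, as log2((AA FPKM + 1)/(PBS FPKM + 1)), in DMSO and under GSK-J4, with 1 library per condition. The shaded bands span the 5th to 95th percentile of all genes tested, -0.38 to 0.36 in DMSO and -0.43 to 0.33 under GSK-J4. The bars of *Hk2* and *Gapdh* stay within their bands and those of *Ldha*, *Pgk1*, *Tpi1*, *Pfkl* and *Aldoa* extend far below them.

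The second comparison asked how AA acted in cells that also received GSK-J4. Here 8 of the 9 enzymes were lower and 0 higher, beside 8.34% of all 9180 genes lower and 5.29% higher, and again the set was chosen with these values known. At 1.5-fold, 6 enzymes were lower, beside 2.54% of all genes, and at 2-fold 4 enzymes, beside 0.599%. The median log2 ratio was -0.75, against -0.02 for all genes with an SD of 0.26. *Ldha* had the lowest ratio, -1.42, with 37.3% of its PBS level left. *Pgk1* followed at -1.15, and *Tpi1* and *Pfkl* were both at -1.12. The ratio of *Aldoa* was -0.75, that of *Eno1* -0.59, of *Pgam1* -0.50 and of *Gapdh* -0.40. The abundant other genes had a median of -0.02 in this comparison, and 8 of 475 (1.68%) were lower.

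The comparisons of AA in DMSO and under GSK-J4 share no library. The log2 ratio under GSK-J4 was below that in DMSO for 7 of the 9 enzymes, and the median difference was -0.15. Of all 9363 genes with an FPKM of 1 in any library, 44.3% had a difference below 0. Their median difference was 0.03 with an SD of 0.34. The difference was -0.37 for *Ldha* and -0.34 for *Pgk1*, close to 1 SD of all genes, and between -0.19 and -0.11 for *Pfkl*, *Tpi1*, *Eno1*, *Gapdh* and *Pgam1*. It was 0.00 for *Aldoa* and 0.02 for *Hk2*, and both of these values changed sign under other scalings of the libraries. These differences between the comparisons were not tested, since there are no replicates.

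**Figure D3:**
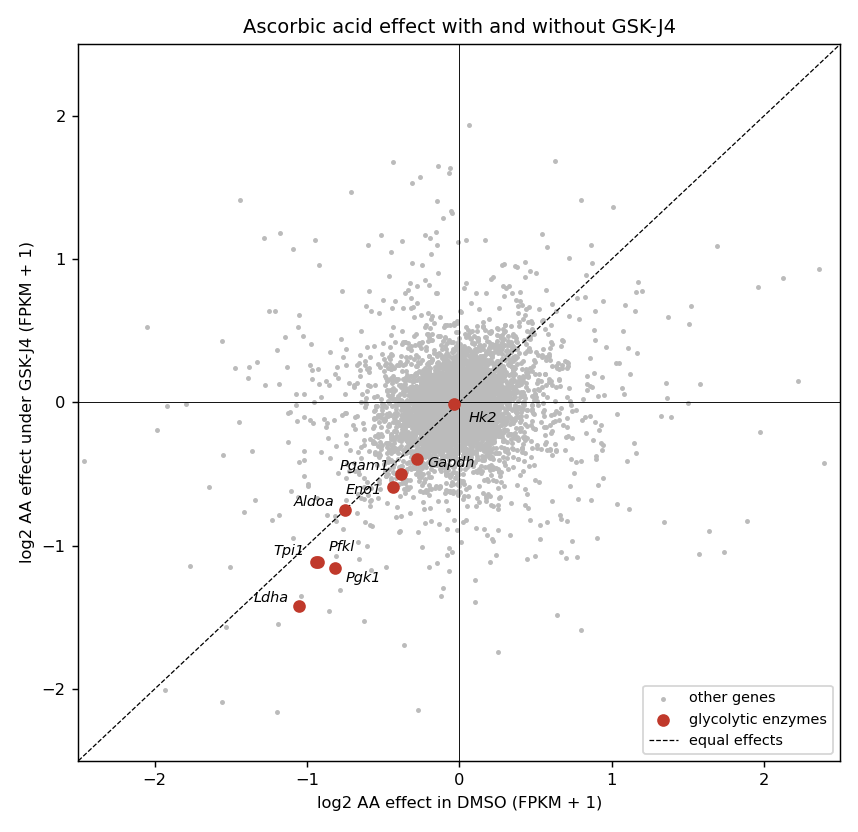
AA effect in DMSO (x axis) against AA effect under GSK-J4 (y axis), as log2 ratios of FPKM + 1, for the 9 glycolytic enzymes (red) and all other genes tested in both comparisons (grey). *Ldha* (-1.05 and -1.42) and *Pgk1* (-0.82 and -1.15) lie below the dashed line of equal effects, *Aldoa* (-0.75 and -0.75) lies on it, and *Hk2* sits near the origin.

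GSK-J4 also went with lower enzyme levels. Without AA, 8 of the 9 enzymes were lower and 0 higher, beside 38.3% of all 9196 genes lower and 19.8% higher. With AA, 9 were lower and 0 higher, beside 36.1% of all 9139 genes lower and 19.3% higher. At 1.5-fold, 5 enzymes were lower without AA, beside 19.3% of all genes, and 7 with AA, beside 17.8%. At 2-fold, 0 were lower in either comparison, beside 3.5% and 3.38%. The median log2 ratios of the enzymes were -0.62 without AA and -0.76 with AA, against -0.17 and -0.16 for all genes. Abundant genes were lower as a class. The 475 other genes with a mean FPKM of at least 100 had medians of -0.60 and -0.55, and 71.6% and 68.8% of them were lower. The summed FPKM of the 7 ESC markers moved the same way, from 2124 in PBS+DMSO to 1311 in PBS+GSK-J4 and from 1892 in AA+DMSO to 1177 in AA+GSK-J4, and its part in the enzyme values was not tested. *Pgam1* had the lowest ratio in both comparisons, -0.87 and -0.98. *Pfkl* had the smallest, -0.19 and -0.38, and its value without AA turned positive after upper-quartile scaling of the libraries (0.09) or scaling to the same total (0.19). The count of enzymes lower without AA depended on scaling, with 5 after upper-quartile scaling and 3 after scaling to the same total. Under these scalings, 1816 of 9225 and 1294 of 9242 genes were lower, and the median of all genes moved to 0.07 and 0.17. In AA+GSK-J4 against PBS+DMSO, the log2 ratios ran from -1.91 for *Ldha* and -1.86 for *Tpi1* to -0.72 for *Hk2*, with a median of -1.31. Over all 9363 genes, the median was -0.18 with an SD of 0.58. These libraries stand in separate deposited tables. Their summed FPKM was 360621 in PBS+DMSO and 271205 in AA+GSK-J4, so the ratios depend on scaling.

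Isozymes of the same step were compared within a library, where the ratio does not depend on how libraries are scaled. *Ldhb*, the lactate dehydrogenase subunit that favours pyruvate formation, was at 53.5 FPKM in PBS+DMSO, 55.7 in AA+DMSO, 104 in PBS+GSK-J4 and 93.3 in AA+GSK-J4. The ratio of *Ldha* to *Ldhb* was therefore 17.4 in PBS+DMSO, 8.07 in AA+DMSO, 6.41 in PBS+GSK-J4 and 2.66 in AA+GSK-J4. Each treatment went with a lower ratio. The *Ldha* level itself depended on scaling for GSK-J4 without AA, with a log2 ratio of -0.49 as deposited and -0.10 after scaling to the same total. *Pfkl* made up 62.8% of the phosphofructokinase FPKM of *Pfkl*, *Pfkm* and *Pfkp* in PBS+DMSO and 48.9% in AA+DMSO. Under GSK-J4 its share was 66.5% with PBS and 47.6% with AA, so the share followed AA in both pairs. *Pfkp*, the platelet type, had log2 ratios for AA of -0.22 and -0.05, and *Pfkm*, the muscle type, of 0.23 and 0.10. The ratio of *Hk2* to *Hk1* was 5.71 in PBS+DMSO, 4.81 in AA+DMSO, 3.66 in PBS+GSK-J4 and 3.26 in AA+GSK-J4. *Hk1* itself had log2 ratios for AA of 0.19 in DMSO and 0.14 under GSK-J4.

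**Figure D4:**
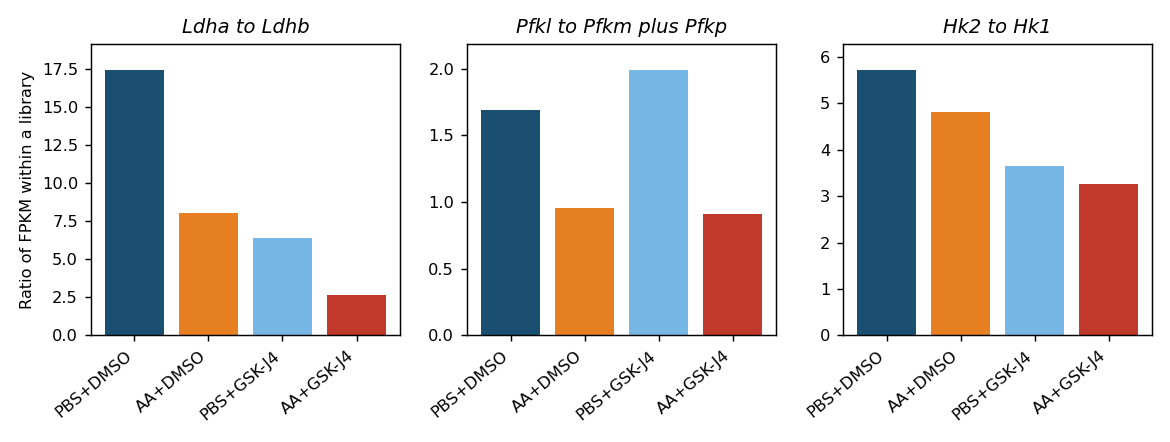
Ratio of FPKM between isozyme genes of the same step within each of the 4 libraries, on linear axes from 0, with 1 library per bar. *Ldha* to *Ldhb* is highest in PBS+DMSO (17.4) and lowest in AA+GSK-J4 (2.66), and *Pfkl* to *Pfkm* plus *Pfkp* is near 1 in both AA libraries (0.956 and 0.909).

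Of the other glycolytic isozymes and side enzymes, 10 of 20 had a value and 8 reached an FPKM of 1 in each AA comparison. *Eno3* was among them in DMSO only and *Pgam2* under GSK-J4 only. In each comparison, 1 of 8 was lower with AA and 0 were higher. Of all genes, 6.73% and 8.34% were lower and 5.86% and 5.29% higher, so a count of 1 in 8 is near the background. The lower gene was *Pkm*, pyruvate kinase, which makes the last ATP of the pathway. It was at 230 FPKM in PBS+DMSO, 174 in AA+DMSO, 137 in PBS+GSK-J4 and 92.2 in AA+GSK-J4, with AA log2 ratios of -0.40 and -0.57. *Bpgm* and *Galm* had AA log2 ratios between -0.11 and -0.01 in DMSO and between -0.09 and -0.04 under GSK-J4.

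Glucose and lactate carriers and regulators of flux were lower in part, with 4 of 12 lower with AA in DMSO and 4 of 14 under GSK-J4, and 0 higher, beside 6.73% and 8.34% of all genes lower. *Slc16a3*, which exports lactate, was at 41.0 FPKM in PBS+DMSO, 13.3 in AA+DMSO, 28.5 in PBS+GSK-J4 and 5.93 in AA+GSK-J4. Its AA log2 ratios were -1.56 and -2.09, lower than those of any enzyme of the set. *Slc16a1*, another monocarboxylate carrier, was at 59.3 and 53.9 FPKM without GSK-J4 and at 34.2 and 32.2 with it. *Slc2a1*, the glucose carrier GLUT1, was at 182 FPKM in PBS+DMSO, 121 in AA+DMSO, 181 in PBS+GSK-J4 and 119 in AA+GSK-J4, and both AA libraries lay below both PBS libraries. *Slc2a3*, the carrier GLUT3, had AA log2 ratios of -0.22 and -0.319, both within the limit, which is more exactly 0.322. *Pdk1*, a kinase that switches off pyruvate dehydrogenase, had AA log2 ratios of -0.37 and -0.36.

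Pathways next to glycolysis showed little difference with AA. Of all genes, 6.73% and 8.34% were lower with AA in DMSO and under GSK-J4, and 5.86% and 5.29% higher. Of the abundant other genes, 1.47% and 1.68% were lower. At these shares, short lists such as those of the pentose phosphate pathway and of glycogen and gluconeogenesis would hold few called genes. For pyruvate entry and the citric acid cycle, 0 of 23 genes were lower or higher in either AA comparison, and the medians were -0.05 and -0.02. The ratios in DMSO ran from -0.18 for *Mpc1*, a subunit of the mitochondrial pyruvate carrier, to 0.16. For the pentose phosphate pathway, 0 of 6 genes passed the limit in either comparison. *G6pdx*, its first enzyme, had AA log2 ratios of -0.07 in both. For glycogen and gluconeogenesis, 0 of 8 genes were lower with AA in DMSO and 1 of 9 under GSK-J4. *Pck2*, which makes phosphoenolpyruvate, had AA log2 ratios of 0.21 and 0.19. With GSK-J4, 18 of the 23 genes of pyruvate entry and the citric acid cycle were lower without AA and 17 with AA, with medians of -0.55 and -0.46, beside 38.3% and 36.1% of all genes and 71.6% and 68.8% of the abundant other genes. Scaling to the same total changed these counts to 1 and 6 of 23. Under that scaling, 1294 of 9242 genes were lower without AA and 1418 of 9209 with AA.

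Among known HIF targets outside glycolysis, 12 of 19 were lower with AA in DMSO and 11 of 22 under GSK-J4, while 0 and 1 were higher. Of all genes, 6.73% and 8.34% were lower and 5.86% and 5.29% higher in these comparisons. The medians were -0.38 and -0.30. Scaling to the same total left 9 genes lower in either comparison, beside 4.64% and 7.97% of all genes under that scaling. *Bnip3*, a mitophagy receptor, was at 46.4 FPKM in PBS+DMSO, 19.7 in AA+DMSO, 44.6 in PBS+GSK-J4 and 14.6 in AA+GSK-J4. *P4ha1*, a collagen prolyl hydroxylase subunit, had AA log2 ratios of -1.18 and -0.79. *Plod2*, a collagen lysyl hydroxylase, had ratios of -0.52 and -0.61, and *Higd1a*, a mitochondrial protein, of -0.45 and -0.54. With GSK-J4 without AA, 11 of 22 of these targets were higher and 4 lower, beside 19.8% and 38.3% of all genes, and scaling to the same total gave 14 higher and 0 lower. Of HIF and its regulators, 2 of 10 genes were lower with AA in either comparison, beside 6.73% and 8.34% of all genes, and 0 were higher in DMSO and 1, *Hif1a*, under GSK-J4. The list medians were -0.15 and 0.02. The same 2 genes were lower in both comparisons, and both are also counted among the HIF targets outside glycolysis. *Hif1a*, a HIF alpha subunit, had AA log2 ratios of -0.29 and 0.48. *Egln1*, which encodes a HIF prolyl hydroxylase and is in both lists, had AA log2 ratios of -0.45 and -0.41, and *Egln2*, another of these hydroxylases, had 0.17 and 0.21. *Epas1*, which encodes another HIF alpha subunit, had -0.24 and -0.13, within the limit.

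**Figure D5:**
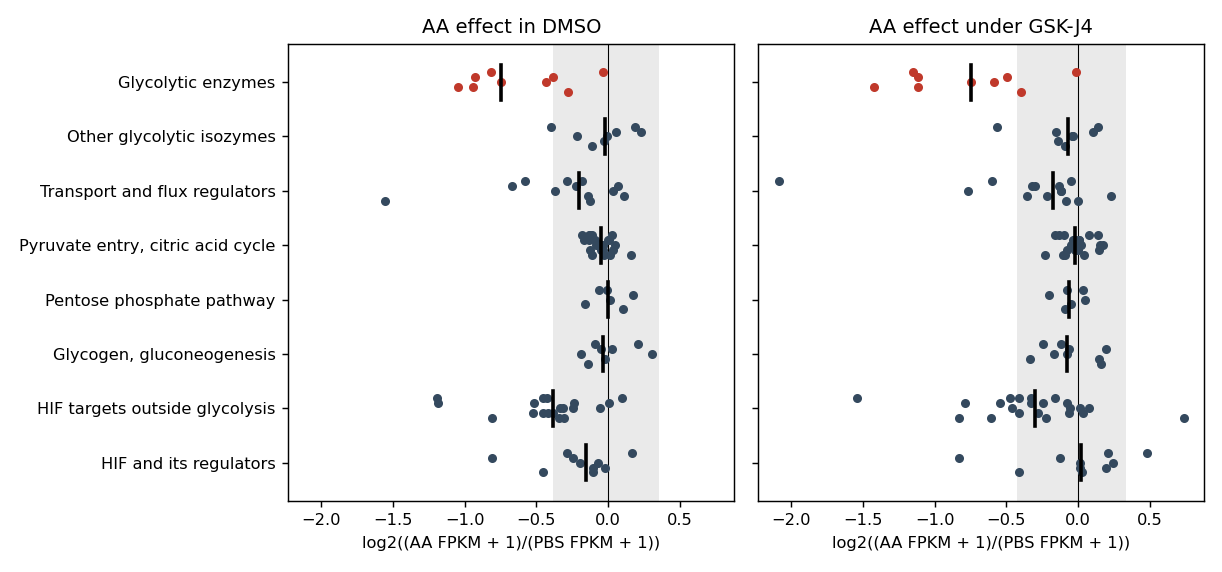
AA log2 ratio of FPKM + 1 in DMSO (left) and under GSK-J4 (right) for the glycolytic enzymes (red) and 7 other gene lists, with 1 point per gene, black bars at the list medians and grey bands from the 5th to the 95th percentile of all genes tested. The red points have a median of -0.75 in both panels, while the genes of the citric acid cycle and pentose phosphate lists stay within the bands.

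To find genes with a similar pattern, the log2(FPKM + 1) values of each gene with a mean FPKM of at least 10 were centred on their mean over the 4 libraries and compared with the mean of the enzymes by Euclidean distance. The enzymes themselves lay at distances from 0.16 for *Aldoa* to 0.54 for *Ldha* and 0.69 for *Hk2*. The nearest other genes were *Dpysl3* at 0.22, *Tdgf1* at 0.27, and *Igfbp2*, *Gpatch4* and *Pkm* at 0.28. *Higd1a*, *Vwa9*, *Dnmt3l*, *Pim2* and *Mif* followed at 0.30 to 0.32. *Tdgf1*, a Nodal co-receptor and one of the ESC markers, was at 525 FPKM in PBS+DMSO, 378 in AA+DMSO, 304 in PBS+GSK-J4 and 187 in AA+GSK-J4. *Igfbp2*, which binds insulin-like growth factors, was at 154, 103, 117 and 51.3 FPKM in the same order. These distances rest on 4 libraries only.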

How the data were processed

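RNA from 4 conditions was sequenced, with 1 library each. Per the labels and the paper's methods, the authors removed duplicates from single-end reads, aligned them with TopHat2 to mm10 and used Cufflinks2, CummeRbund and Genome Explorer through Maser. They deposited FPKM values in 2 tables of 11033 coding sequence groups. The FPKM columns are headed as log10 but hold linear values. The remaining columns (fold changes, p-values and q-values of the authors' own comparisons) were not used. Removal of duplicates can lower abundant genes, and reads of processed pseudogenes, which several of these enzyme genes have, can be split between copies. Neither effect was tested.

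FPKM was summed over the groups of a gene. The 157 genes with a failed estimate were left out. Log2 ratios used a pseudocount of 1 FPKM, which understates changes of weakly expressed genes, and all genes with at least 1 FPKM in either library. There are no replicates, so no p-value was computed. The members, the lists and the limits were chosen with earlier results of these data known. Genes were named by rule: all enzymes, every other glycolytic isozyme with a mean FPKM of at least 5, the 4 genes of each list with the mean AA log2 ratios of largest size and a mean FPKM of at least 5, and the 10 genes of most similar pattern. Of those, the ones described are a selection, and *Ldhb*, *Slc16a1* and the isozymes set in ratios are described as partners of a named gene. Alternatives were other pseudocounts, filters, scalings and fold limits, the top coding sequence group only, and inclusion of failed estimates. The calculation of the calls was checked on simulated 2-fold changes with little noise. That check does not show how reliable the calls in these unreplicated libraries are. Python 3.11.15, numpy 2.4.6, pandas 2.3.3 and matplotlib 3.10.9 were used.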

Additional observations from a re-analysis of the deposited data

Results flagged for a closer look

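*Hif1a*, which encodes the HIF subunit whose stability is regulated by oxygen, was at 24.7 FPKM in PBS+DMSO, 20.1 in AA+DMSO, 14.04 in PBS+GSK-J4 and 19.98 in AA+GSK-J4. Its AA log2 ratio was -0.29 in DMSO, within the limit of 0.32, and 0.48 under GSK-J4. AA thus went with opposite directions in the presence and absence of GSK-J4, a difference of 0.77. Over all genes, this difference had an SD of 0.34. The difference was not tested. On the FPKM as deposited, 0 of the 9 glycolytic enzymes had AA log2 ratios of opposite sign in DMSO and under GSK-J4. The set was chosen with these ratios known and the share of all genes with opposite signs was not computed, so nothing is read from this count.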

How the results depend on the processing

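The median AA log2 ratio of the enzymes stayed between -0.75 and -0.67 in DMSO and between -0.75 and -0.72 under GSK-J4 over the pseudocounts, scalings and group choices tried. A 2-fold limit left 1 enzyme lower with AA in DMSO, 4 lower with AA under GSK-J4, and 0 lower with GSK-J4 without AA and 0 with AA. For GSK-J4 without AA, the count of lower enzymes was 5 at 1.5-fold, 5 after upper-quartile scaling and 3 after scaling to the same total. The genes lower with AA in DMSO numbered 208 at a pseudocount of 5, 288 with the FPKM filter raised to 5, 196 at 1.5-fold and 65 at 2-fold, and under GSK-J4 they numbered 229, 327, 233 and 55 in the same order. Genes lower made up 53.5% of those changed with AA in DMSO as deposited and 38.8% after scaling to the same total, 65.9% and 27.1% with GSK-J4 without AA, and 65.1% and 30.5% with GSK-J4 with AA. With AA under GSK-J4 the share was 61.2% as deposited and 56.1% to 56.9% under the scalings and centring tried. Genes lower with GSK-J4 without AA numbered 1816 after upper-quartile scaling, 1294 after scaling to the same total, 1775 at 1.5-fold and 322 at 2-fold, and with AA 1819, 1418, 1625 and 309. Upper-quartile scaling cancels in the distance between centred patterns apart from the pseudocount, so the 10 of 10 genes it returned say nothing about stability. No paired analysis was possible because each condition is 1 library, and for the same reason no library could be left out. The depth of the libraries limits the weakly expressed list genes more than the enzymes, of which the lowest value was 29.3 FPKM.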
